A study of Mus musculus with 8 samples.

Results

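The 7 genes described here encode the major histocompatibility complex (MHC) class II antigen presentation machinery of the mouse: the chains H2-Aa, H2-Ab1 and H2-Eb1, the invariant chain Cd74, the peptide exchange factor subunits H2-DMa and H2-DMb1, and the class II transactivator Ciita. They were chosen by name as 7 of the 32502 genes listed in 8 tables of unique molecular identifiers (UMIs, each counting 1 captured transcript end), and their UMIs were read in each cell type of each library. All 7 were detected. Cd74 gave 47193 UMIs in 2616 cells, H2-Ab1 35569 in 2482, H2-Eb1 33469 in 2529 and H2-Aa 30251 in 2393, whereas H2-DMa gave 6342 in 2008 cells, H2-DMb1 4333 in 1778 and Ciita 280 in 227.

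MHC class II molecules are αβ heterodimers that display peptides from endocytosed proteins to CD4+ T cells. The newly made dimer binds the invariant chain, which fills the groove and steers the complex to the endosome, where proteases trim it to the CLIP fragment that H2-DM then exchanges for antigenic peptide. Transcription of nearly all genes of the pathway depends on CIITA, a coactivator that does not bind DNA itself but docks on RFX, CREB and NF-Y at the promoters, is constitutive in dendritic cells and B cells, and is induced by interferon γ (IFNγ) in many other cells, including microglia and tumour cells.

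The libraries came from C57BL/6 mice that were wild type (WT, C57BL/6N littermates per the study's methods) or lacked Acod1/Irg1 (KO), the enzyme that makes itaconate. In each genotype 1 library was made from naïve brain, its label naming 2 mice, and 1 each from the dissected tumour of 1 mouse bearing GL261, a syngeneic mouse glioma line of which 500 cells had been implanted in the brain, at early (5-10 mm3), intermediate (20-25 mm3) and late stage (30-35 mm3). With 1 library per genotype and stage, genotype and stage cannot be told apart from the mouse, and the mice also differed in sex between libraries. The KO allele carries an insertion cassette, and Acod1 UMIs were present in tumour-associated myeloid cells of the KO libraries (27, 6 and 33 UMIs at early, intermediate and late stage, against 140, 5 and 4 in WT), so that Acod1 did not check the genotype labels.

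The 8 libraries held 454 to 1000 cells after filtering (5698 in all, from 5691 distinct barcodes, 2 of which recurred between libraries) at a median of 2607.5 to 5642.5 UMIs per cell. Cells were placed in 14 classes by clustering without the class II genes, so that no class was defined by the genes described. These were 3392 tumour cells, led by Col9a1 and Col11a1, 450 macrophage-like cells (TAM II), 376 microglia-like cells (TAM I in tumour-bearing mice), 188 lymphocytes, 25 dendritic cell-like cells and 9 classes of glial, vascular, ependymal and neuronal cells. Levels are UMIs of a gene per 1000000 UMIs of a class in a library (CPM), and tests compared sums over libraries, since cells of 1 mouse are not replicates. Intervals in brackets are exact 95% intervals that cover counting error only.

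Among the chain genes, H2-Aa (chromosome 17, 34282744 to 34287823, minus strand, GRCm38) encodes the α chain of I-A and H2-Ab1 (chromosome 17, 34257689 to 34269419, plus strand) its β chain, while H2-Eb1 (chromosome 17, 34305867 to 34316674, plus strand) encodes the β chain of I-E, whose α chain is not made in this strain. They lie together with H2-DMa (34119541 to 34139101) and H2-DMb1 (34153072 to 34160230) in the MHC, and Ciita lies on chromosome 16 (10480059 to 10528418, plus strand). The proximal promoters of H2-Aa and H2-Eb1 are shown because these 2 genes were high and low in the same libraries, as described below, and because they carry the X and Y boxes that RFX and NF-Y bind in class II promoters. The 94 bases of H2-Aa at chr17:34287834-34287927 (minus strand, GRCm38.p6, RefSeq) run from 104 to 11 bases before its start, and the 93 bases of H2-Eb1 at chr17:34305753-34305845 (plus strand) from 114 to 22 bases before its start, 5′ to 3′, with capitals marking the X box core CNNGNAAC and the Y box core TGATTGG.
H2-Aa: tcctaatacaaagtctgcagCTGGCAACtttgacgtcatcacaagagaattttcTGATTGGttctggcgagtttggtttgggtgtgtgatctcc
H2-Eb1: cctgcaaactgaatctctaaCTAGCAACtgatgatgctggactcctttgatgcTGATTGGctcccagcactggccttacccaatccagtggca

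The X core began 84 bases before the start of H2-Aa and 94 before that of H2-Eb1, and the Y core followed 34 and 33 bases further on. H2-DMb1 held the same pair of cores, 97 and 63 bases before its start, 34 bases apart, and neither start of H2-DMa held it. Searched on both strands in the 250 bases before each start, the Y core stood in 2375 of 32851 promoters (7.23%) and the X core in 10952 (33.3%), while an X core 15 to 45 bases ahead of a Y core on the same strand stood in 70 (0.213%). H2-Eb2, H2-Oa and H2-Ob, class II genes of the same locus, were also among these 70. H2-DMb2, a further class II gene there, held both cores but not as such a pair. The letters of the cores were chosen with the promoters in view, and 4 of the 7 genes matched the promoter table, which left H2-Ab1, Cd74 and Ciita without one.

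Cd74, which lies on chromosome 18, was highest in myeloid cells but was detected in all 14 classes of the tumour-bearing brain. In cells of the 6 tumour-bearing libraries pooled, Cd74 reached 10782 CPM (10641-10924) in macrophage-like cells, 7499 CPM in microglia-like cells, 5924 CPM in the 25 dendritic cell-like cells, 625 CPM (616-635) in tumour cells and 561 CPM (509-616) in lymphocytes. It then fell to 502 CPM in mural or fibroblast-like cells, 218 in endothelial cells, 155 in neural stem cell-like cells, 126 in astrocytes, 120 in oligodendrocytes and 90.1 in oligodendrocyte precursor cells (OPCs), and to 30.1 and 6.27 CPM in neuron-like and choroid plexus epithelial-like cells. Because tumour cells were the most numerous class they held 38.8% of all Cd74 UMIs of these libraries, against 47.8% in macrophage-like, 10.8% in microglia-like and 0.914% in lymphocytes. Neighbours in this order were compared by an exact paired permutation test over libraries (two-sided), in which 6 pairs cannot give less than p = 0.031, so that a single pair could not pass once adjusted over the neighbours. Macrophage-like over microglia-like cells reached that limit for Cd74, higher in 6 of 6 libraries by 1.93 ± 1.97 (SD) on the log2(CPM + 10) scale (exact adjusted p = 0.281), and the fit across all genes called this pair, as given below. Tumour cells over lymphocytes were higher in Cd74 in 3 of 5 libraries, astrocytes over oligodendrocytes in 2 of 5 and oligodendrocytes over OPCs in 4 of 6, so the libraries did not agree on the order of these neighbours.

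**Figure D1:**
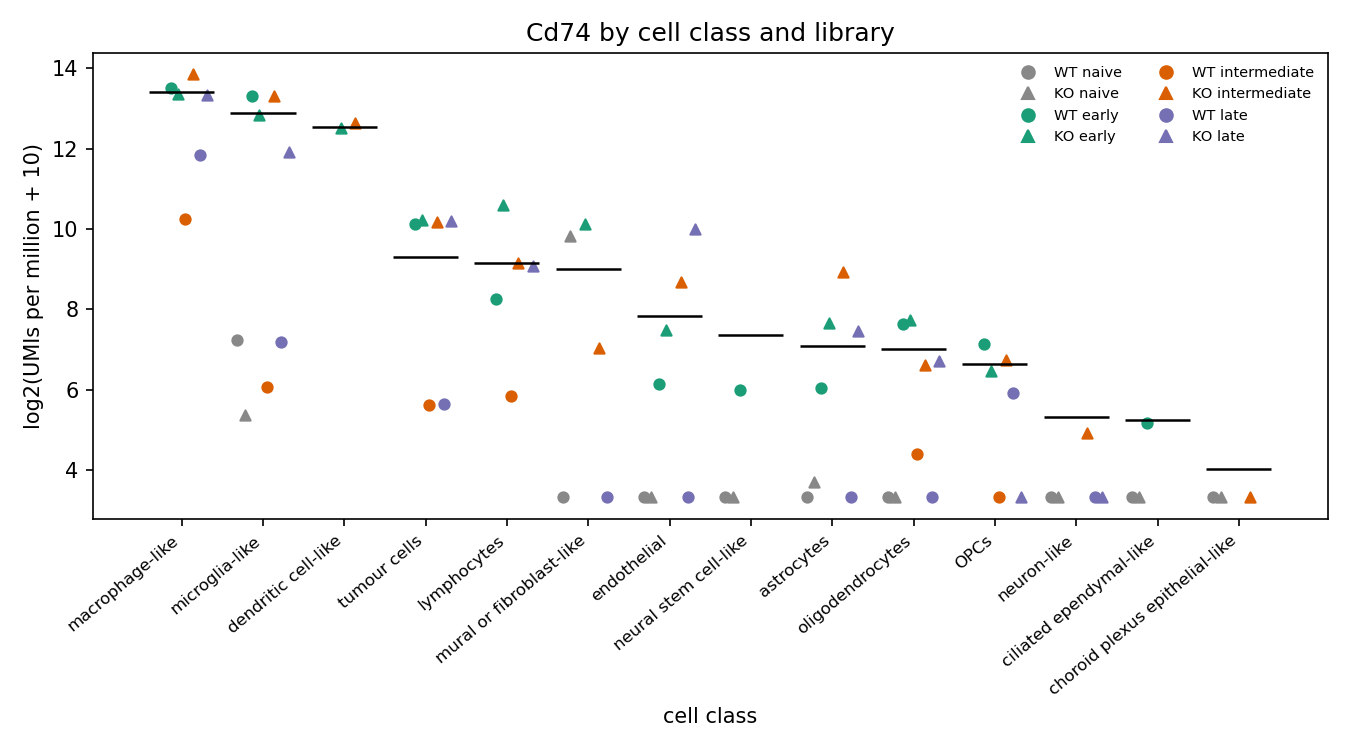
Cd74 level (CPM, log axis) in each cell class, 1 point per library, with tumour-bearing and naïve libraries distinguished. Macrophage-like cells lie at the top between 1209 and 14781 CPM, and in tumour cells 4 libraries lie between 1114 and 1196 CPM while WT intermediate and WT late lie near 39 CPM.

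In tumour cells, Cd74 stood at 1114 CPM in WT early, 1196 in KO early, 39.2 in WT intermediate, 1137 in KO intermediate, 39.6 in WT late and 1166 in KO late. WT early and the 3 KO libraries thus lay close together, and WT intermediate and WT late lay far below them. The chain genes followed the same pattern. H2-Aa was at 953, 914, 27.1, 743, 17.7 and 1002 CPM in the same order of libraries, H2-Ab1 at 829, 857, 40.7, 711, 18.2 and 1052, and H2-Eb1 at 1254, 1133, 43.5, 963, 19.4 and 1186.

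The same 2 libraries were the lowest in Cd74 among microglia-like and macrophage-like cells, lymphocytes and oligodendrocytes too, although the single dendritic cell-like cell of each held 14 Cd74 UMIs. They also held few lymphocytes, a main source of IFNγ. Lymphocytes made up 8.22% (3.08-17.0) of non-tumour cells in WT intermediate (6 of 73) and 3.01% (0.825-7.52) in WT late (4 of 133). In the other 4 they made up 13.9 to 15.6%, shares that the interval of WT intermediate covers. Ifng itself gave 0 UMIs in lymphocytes of both, against 82, 80, 11 and 26 UMIs in WT early, KO early, KO intermediate and KO late. Lymphocytes of WT intermediate and WT late held only 41887 and 11911 UMIs of all genes, so a low Ifng level could be missed there. Over all cells Ifng gave 0 UMIs in these 2 libraries and 83, 126, 11 and 43 in the other 4, so not all of it was in lymphocytes. In tumour cells Irf1, a transcription factor induced by IFNγ that drives Ciita, was at 248, 267, 94.6, 216, 54.3 and 269.7 CPM. Ifngr1, the receptor subunit that binds IFNγ, was at 25.1 to 42.0 CPM in all 6 and so did not separate these libraries. The part of lymphocyte number or IFNγ in the class II levels was not tested.

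The class II transcripts of tumour cells were spread over most cells rather than a few. A Cd74 UMI was found in 92.5, 96.5, 8.63, 89.3, 7.77 and 84.7% of tumour cells of WT early, KO early, WT intermediate, KO intermediate, WT late and KO late, at median depths of 3569 to 5854 UMIs. After thinning each cell to 1000 UMIs the shares were 61.9, 71.5, 2.59, 58.4, 2.59 and 54.7%. Cells that should lack the gene gave 3 of 26 neuron-like cells (11.5%, median 3514.5 UMIs) and 1 of 17 choroid plexus epithelial-like cells (5.88%, median 2323 UMIs), and none of either after thinning. In WT intermediate and WT late themselves, neuron-like cells gave 0 of 2 and 0 of 5 and oligodendrocytes 1 of 24 and 0 of 34, too few cells to set a background for the shares of 8.63 and 7.77% there. Single tumour cells of these 2 libraries held up to 67 and 65 Cd74 UMIs, but at most 15 and 10 in cells without a UMI of the myeloid list given below. At least 4 of the 7 genes were detected in 87.5, 88.7, 4.42, 78.3, 2.07 and 77.7% of tumour cells.

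Tumour cells without a Cd74 UMI mostly held other class II transcripts in the 4 high libraries and mostly lacked them in the 2 low ones. Of cells without Cd74, 100% of 21 in WT early, 100% of 18 in KO early, 80.0% of 60 in KO intermediate and 81.5% of 81 in KO late had a UMI of H2-Aa, H2-Ab1 or H2-Eb1, against 98.4 to 99.6% of cells with Cd74. In WT intermediate and WT late it was 7.32% of 847 and 6.74% of 534 cells without Cd74, against 65.0% of 80 and 46.7% of 45 cells with it. In each library the cells with Cd74 were the deeper ones, from a median of 3667 against 1802.5 UMIs in KO early to 9580 against 4040.5 in WT late, and the part of depth in these shares was not tested.

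Transcripts of macrophages and microglia were present at low level in tumour cells, so the class II genes were also read in the tumour cells that had no UMI of a 10-gene myeloid list (C1qa, C1qb, C1qc, Lyz2, Csf1r, Aif1, Apoe, Laptm5, Fcer1g and Tyrobp). Cd74 there was at 1159.7 CPM in WT early (136 cells), 1133 in KO early (192), 21.0 in WT intermediate (775), 1101 in KO intermediate (379), 12.4 in WT late (378) and 934 in KO late (288). The 4 high libraries thus remained between 934 and 1159.7 CPM with no myeloid transcript in the cell, and WT intermediate and WT late were lower than over all their tumour cells. All 10 genes of the list were detected in tumour cells of each library, at 66.5 CPM in WT intermediate to 1597 CPM in KO late summed over the list. Across all tumour cells the list gave 0.210 UMIs per Cd74 UMI in WT early, 0.265 in KO early, 0.101 in KO intermediate and 1.37 in KO late, against 3.16 to 4.81 in the macrophage-like cells of those libraries. In WT late tumour cells the list gave 11.2 UMIs per Cd74 UMI, near the 13.3 of WT late macrophage-like cells, and in WT intermediate 1.70 against 52.5. Single tumour cells held up to 424 Cd74 UMIs (KO intermediate), but those of KO intermediate without a myeloid UMI held at most 52.

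Ciita was sparse and was found mainly in tumour and macrophage-like cells. Of its 280 UMIs, 209 (74.6%) were in 170 tumour cells and 54 (19.3%) in 43 macrophage-like cells, with 7 in microglia-like cells, 4 in lymphocytes, 3 in a single oligodendrocyte and 1 each in a dendritic cell-like, an endothelial and a mural or fibroblast-like cell. As a level, Ciita was at 25.9 CPM (19.5-33.8) in macrophage-like and 7.15 CPM (6.22-8.19) in tumour cells. In tumour cells it was at 14.6 CPM in WT early (43 UMIs), 10.4 in KO early (38), 1.38 in WT intermediate (11), 8.98 in KO intermediate (43), 0.510 in WT late (3) and 17.8 in KO late (71). The 2 libraries with low Cd74 were thus also the lowest in Ciita, with counting intervals of their own that did not reach those of the other 4. In tumour cells without a myeloid UMI, Ciita was still found, at 11, 9, 6, 19, 0 and 19 UMIs. No Ciita UMI was found in 74 astrocytes, 61 OPCs and 26 neuron-like cells of tumour-bearing mice, which allows up to 15.7, 15.9 and 22.6 CPM (3 UMIs).

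Of the 7 genes of the factors on which Ciita docks, 1 had WT intermediate and WT late as its 2 lowest libraries. That gene was Rfx5, a subunit of RFX, which in tumour cells was at 17.0, 13.98, 13.0, 16.9, 8.51 and 19.6 CPM in the 6 libraries. Nfyb, a subunit of NF-Y, was at 83.5, 72.7, 106, 71.8, 97.0 and 97.3 CPM. For Rfx5 WT intermediate lay close to KO early, and in Nfyb the 2 libraries were among the higher ones. Creb1 (31.8 to 45.5 CPM in these 2 libraries, 24.1 to 33.4 in the other 4) and Rfxap (68.7 and 78.1 against 36.5 to 65.3 CPM) did not fall in them either.

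**Figure D2:**
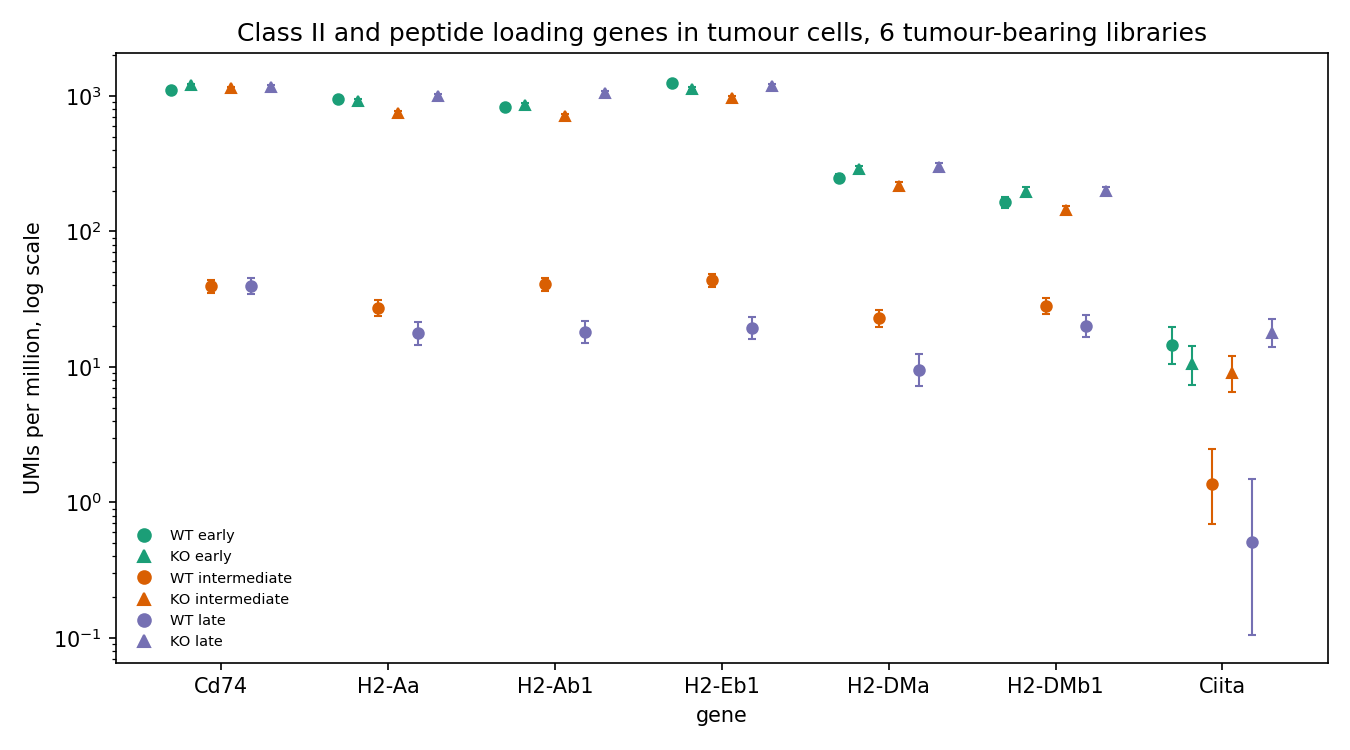
Level of each of the 7 genes in tumour cells (CPM, log axis), 1 point per tumour-bearing library. Cd74, H2-Aa, H2-Ab1 and H2-Eb1 lie between 711 and 1254 CPM in 4 libraries and between 17.7 and 43.5 CPM in WT intermediate and WT late, and the gap is narrower for H2-DMb1 (144 to 198 against 20.1 and 28.2 CPM).

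Of H2-DM, the heterodimer that removes CLIP, the H2-DMb1 subunit was less reduced in WT intermediate and WT late than Cd74, while H2-DMa in WT late was reduced about as much. H2-DMa was at 248, 287, 22.9, 218, 9.53 and 301 CPM in tumour cells of the 6 libraries, and H2-DMb1 at 164, 196, 28.2, 144, 20.1 and 198 CPM. The 2 DM genes together gave 0.369 UMIs per Cd74 UMI in tumour cells of WT early, 0.404 in KO early, 0.318 in KO intermediate and 0.428 in KO late, but 1.30 in WT intermediate and 0.747 in WT late. UMIs mark transcript ends and are not scaled by length, so these ratios serve only to compare classes and libraries. An H2-DMb1 UMI was found in 18.1% of WT intermediate and 15.7% of WT late tumour cells, more than the 8.63 and 7.77% with a Cd74 UMI, and the H2-DMb1 level did not fall in the cells without a myeloid UMI (28.7 and 22.4 CPM). Reads of H2-DMb1 may be shared with its close neighbour H2-DMb2, and those of H2-Eb1 with H2-Eb2, so that the split between them is uncertain. H2-DMb2 was at 15.6, 9.05, 0.251, 9.61, 0 and 12.1 CPM in these tumour cells.

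Tumour cells had more H2-DM per invariant chain than macrophage-like cells in each library, and more than microglia-like cells and lymphocytes in the 4 libraries high in class II. The ratio was 0.398 UMIs per Cd74 UMI in tumour cells, 0.181 in lymphocytes, 0.113 in macrophage-like, 0.109 in microglia-like and 0.0431 in dendritic cell-like cells, pooled over tumour-bearing libraries. It was higher in tumour cells than in macrophage-like cells in each of the 6 libraries, where the latter gave 0.0856, 0.158, 0.311, 0.0812, 0.141 and 0.139. Microglia-like cells gave 0.0855 to 0.197 in the 4 libraries high in class II, but 4 DM UMIs beside 1 of Cd74 in WT intermediate and 16 beside 12 in WT late, where the order was thus reversed on few UMIs. Lymphocytes gave 0.133 to 0.286 in those 4, 3 DM UMIs beside 2 of Cd74 in WT intermediate and none of either in WT late. The H2-DMb1 to H2-DMa ratio was 0.7096 in tumour and 0.720 in macrophage-like cells against 0.376 in microglia-like cells and 0.393 in lymphocytes. H2-Oa and H2-Ob, which form the inhibitor of DM, were nearly absent from tumour cells (1.44 and 0.445 CPM) and were at 195 and 51.4 CPM in microglia-like and 24.5 and 13.0 CPM in macrophage-like cells.

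**Figure D3:**
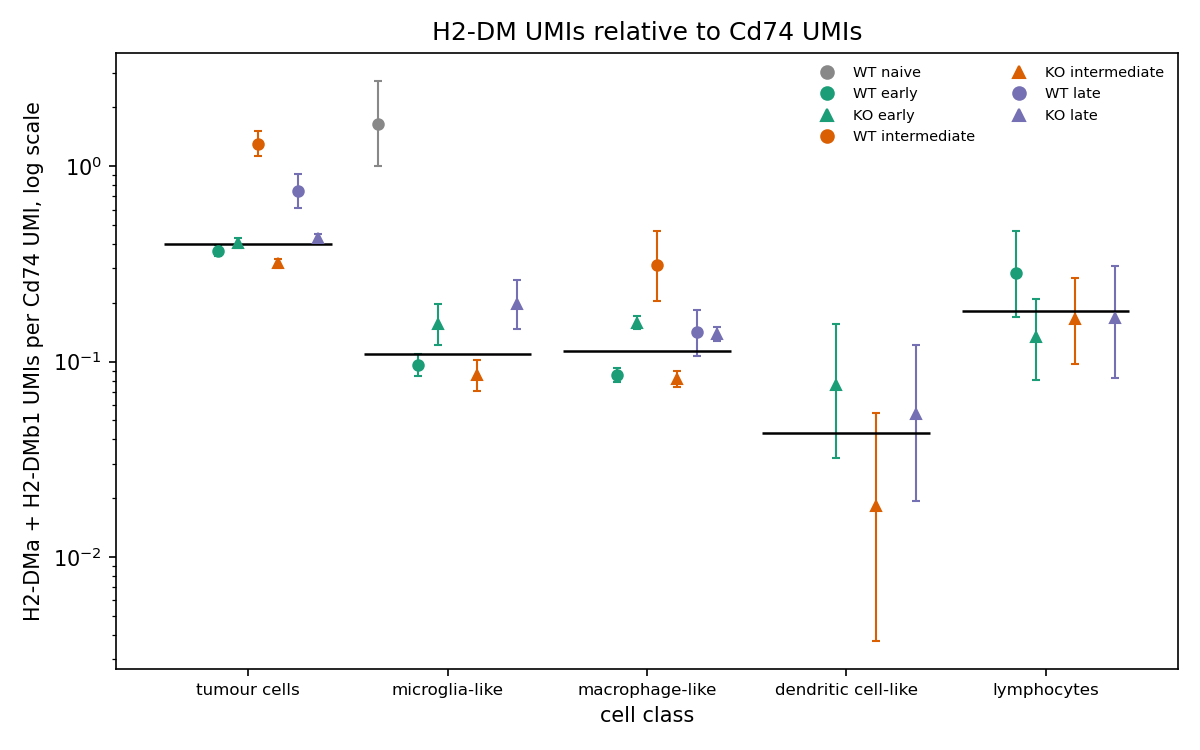
UMIs of H2-DMa and H2-DMb1 together per Cd74 UMI by cell class and library, with 95% counting intervals. Tumour cells lie at 0.318 to 1.30, above the macrophage-like cells of the same libraries at 0.0812 to 0.311.

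Microglia of naïve brain had H2-DM transcripts, while few of these cells had a UMI of Cd74 or of a chain gene. Of 200 naïve microglia-like cells only 7 had a Cd74 UMI, 37 UMIs in all of which 25 came from 1 cell, and no Ciita UMI was found. H2-DMa nevertheless gave 32 UMIs in WT and 47 in KO naïve microglia (160 and 163 CPM), in 31.5% of the cells (13.5% after thinning), and H2-DMb1 gave 14 and 22 UMIs (70.0 and 76.4 CPM). In naïve astrocytes, the H2-DMa share was 1.38% at a higher median depth (2629 against 2305.5 UMIs), so the microglial share was above that of astrocytes. Naïve choroid plexus epithelial-like cells gave 0 of 56. Naïve neuron-like cells gave 1 of 13 (7.69%, 0.195-36.0), an interval that covers the microglial share. The 2 DM genes gave 3.11 UMIs per Cd74 UMI in naïve microglia, against 0.109 in tumour-associated microglia.

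In tumour-associated microglia (TAM I), 5 class II genes rose over naïve microglia. Cd74 was at 10074 CPM in WT early, 7243 in KO early, 57.6 in WT intermediate, 10072 in KO intermediate, 135 in WT late and 3846 in KO late, against 140 and 31.3 CPM in WT and KO naïve microglia. WT early and the 3 KO libraries lay far above naïve brain, whereas WT intermediate (5 cells) and WT late (20 cells) overlapped it. H2-Aa (4859, 3297, 0, 3761, 0 and 1955 CPM), H2-Ab1 (5835, 3608, 0, 3949, 22.5 and 2509.6 CPM) and H2-Eb1 (4358, 2832, 0, 3949, 0 and 1942 CPM) had the same split.

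In the edgeR quasi-likelihood fit of 3248 genes, adjusted by Benjamini and Hochberg, 5 of the 6 genes tested were higher in tumour-bearing libraries, against 9.85% of all genes tested. Ciita did not pass the filter on low counts. The log2 fold change was 5.98 ± 1.501 (SE) for Cd74 (adjusted p = 0.0114), 5.96 ± 1.62 for H2-Eb1 (0.0175), 5.33 ± 1.57 for H2-Aa (0.0275) and 5.27 ± 1.503 for H2-Ab1 (0.0230), each higher in 4 of 6 libraries than in both naïve libraries. H2-DMa rose by a smaller 1.74 ± 0.53 (0.0319, 5 of 6 libraries), and H2-DMb1, at 1.54 ± 0.52, did not pass (adjusted p = 0.0514). The median of the 6 was 5.30 against 0.02 over all genes. Naïve microglia held only 37 Cd74, 27 H2-Aa, 33 H2-Ab1 and 16 H2-Eb1 UMIs. These genes therefore passed the filter through the tumour-bearing libraries, where they were high. The number called and the median thus cannot be weighed against the values over all genes. The calls changed with the libraries and the tool. Leaving out WT early, WT naïve or KO naïve left 0 of the 6 genes, DESeq2 called 2, and edgeR with robust dispersion estimates called 0.

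Other genes of the pathway moved less uniformly in these microglia. Of 7 tested among 13 further class II presentation genes, Ifi30, a lysosomal thiol reductase, rose by 2.12 ± 0.40 on the log2 scale (adjusted p = 0.00154) and Cd83, which stabilises surface class II, by 2.64 ± 0.44 (0.000649), while March1, the ligase that removes it from the surface, fell by 1.39 ± 0.28 (0.00293). On the IFNγ axis (5 of 8 tested) Irf1 rose by 2.63 ± 0.49, in 5 of 6 libraries, and Ifngr1 fell by 1.84 ± 0.39. The CD74 ligand Mif rose by 2.16 ± 0.44 and the checkpoint ligand Cd274 by 4.08 ± 0.66.

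Macrophage-like cells (TAM II) had the highest class II levels of all classes in most libraries. Cd74 was at 11630 CPM in WT early, 10584 in KO early, 1209 in WT intermediate (17 cells), 14781 in KO intermediate, 3631 in WT late (27 cells) and 10332 in KO late. H2-Ab1 was at 9371, 9591, 1140.9, 10297, 2928 and 9254 CPM. As in tumour cells, WT intermediate and WT late were the lowest, though above naïve microglia. H2-DMa was at 528, 956, 228, 741, 339 and 869 CPM, H2-DMb1 at 467, 721, 148, 459, 174 and 567 CPM, and Ciita at 25.1, 28.2, 0, 15.7, 15.8 and 41.0 CPM. The 0 Ciita UMIs of WT intermediate allow up to 34.2 CPM (3 UMIs). Ciita thus separated neither WT intermediate nor WT late from KO intermediate.

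TAM II exceeded TAM I for the chains, the invariant chain and H2-DMb1, but H2-DMa did not pass the test. In paired sums of the 6 libraries, 5 of 6 genes tested were higher in TAM II, against 14.2% of all genes. The log2 fold change was 2.01 ± 0.43 for H2-Ab1 (edgeR, adjusted p = 0.00129), 1.75 ± 0.45 for H2-Eb1 (0.00586), 1.72 ± 0.47 for H2-Aa (0.00827), 1.40 ± 0.40 for Cd74 (0.0126) and 1.17 ± 0.22 for H2-DMb1 (0.000361), each in 6 of 6 libraries. For H2-DMa it was 0.29 ± 0.20 (adjusted p = 0.319, 5 of 6). Without any 1 library the number called was again 5, whereas DESeq2 called 2 and robust dispersion estimates 1.

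Of 8 tested among the further class II genes, Ifi30 was higher in TAM II by 0.86 ± 0.18 (adjusted p = 0.00114) and 4 were lower: the DO chain H2-Oa by 2.71 ± 0.39 (1.76e-05), the invariant chain proteases Ctsl by 1.21 ± 0.20 (0.000102) and Lgmn by 0.85 ± 0.19 (0.00164), and Cd83 by 1.16 ± 0.21 (0.000186). Cd44, the signalling partner of CD74, was higher by 1.63 ± 0.29, Mif by 0.89 ± 0.18 and the checkpoint ligand Pdcd1lg2 by 4.49 ± 0.79. None of the 6 genes tested on the IFNγ axis passed.

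**Figure D4:**
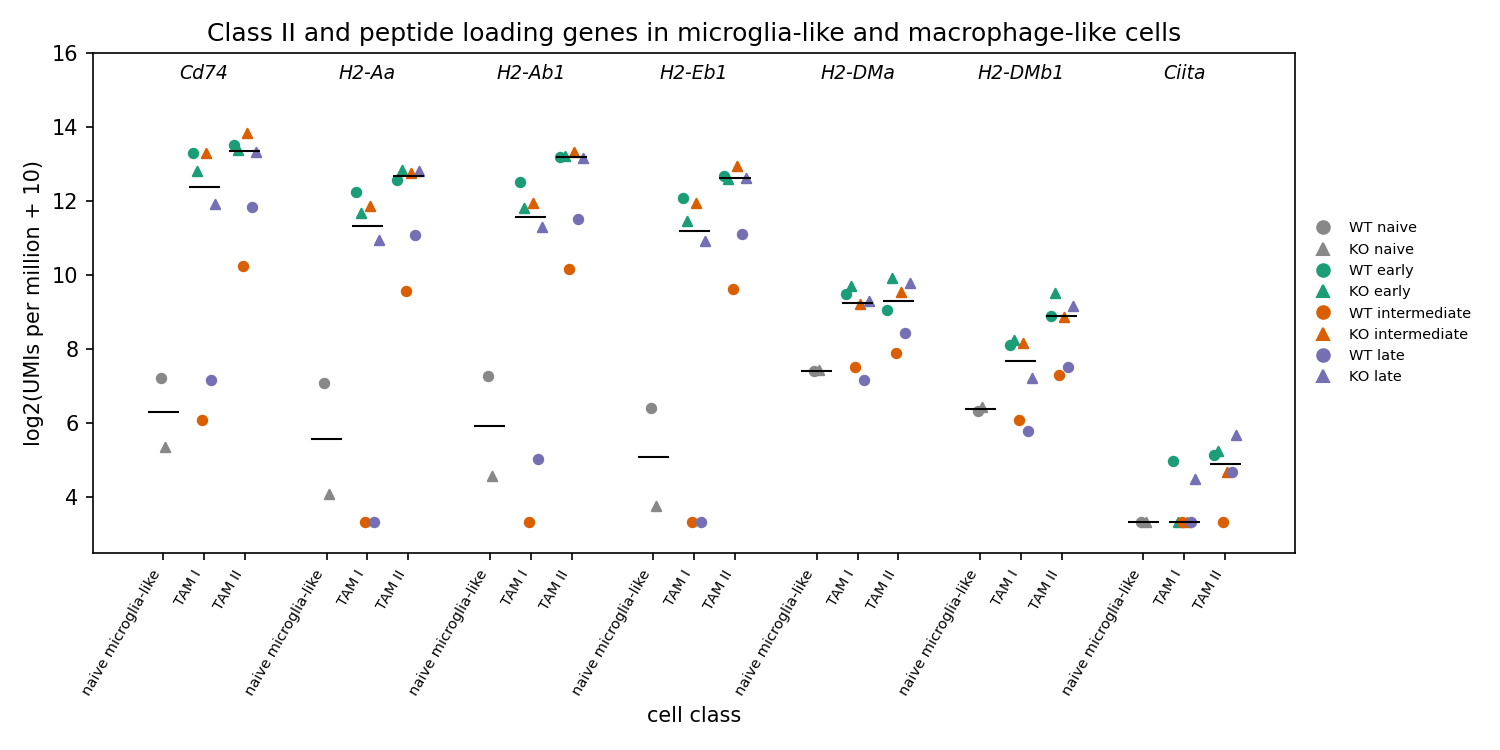
Levels of the 7 genes (CPM, log axis) in microglia-like and macrophage-like cells, 1 point per library, naïve microglia included. Naïve microglia lie at 31.3 and 140 CPM of Cd74 but at 160 and 163 CPM of H2-DMa, within the range of tumour-associated microglia (135 to 831 CPM).

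Lymphocytes had class II transcripts in a minority of cells. The cluster was led by Gzma, Nkg7 and Trac, genes of cytotoxic T and NK cells, which in the mouse make little class II. Cd74 was at 297 CPM in WT early (77 UMIs), 1529 in KO early (158, of which 90 in 1 cell), 47.7 in WT intermediate (2 UMIs, 6 cells), 561 in KO intermediate (121), 534 in KO late (72) and 0 UMIs in the 4 cells of WT late. Of 187 cells, 60 had a Cd74 UMI (32.1%, 25.5-39.3, or 19.3% after thinning). The neuron-like share given above (11.5%, 2.45-30.2) was lower, but it rested on 3 cells and the intervals overlapped. The UMIs were concentrated, since 14 cells with 10 or more held 333 of the 430.

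Of the lymphocytes with Cd74, some held B cell transcripts and most held Trac. Of the 60 cells with Cd74, 32 also had a UMI of a B cell marker, as had 9 of the 14 cells with 10 or more Cd74 UMIs. All 5 cells with Ms4a1 (CD20) and all 6 with Cd79b had Cd74, whereas of 54 cells with Ighm 28 did and of 140 cells with Trac 43 did. Dendritic cell markers were present too: Xcr1 in 5 cells, 4 of them with Cd74, and Ccr7, which naïve T cells share, in 35 cells, 16 of them with Cd74. The C1q, Lyz2, Csf1r and Aif1 transcripts of myeloid cells gave 0.567 UMIs per Cd74 UMI in lymphocytes against 2.45 in macrophage-like cells. In WT early these were 1.73 against 2.83. The whole myeloid list gave 4.25 in lymphocytes against 4.29, and without Apoe 3.21 against 2.89, so only the shorter list was lower in lymphocytes. The part of B, dendritic or myeloid cells in the lymphocyte values was not tested.

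Against tumour cells of the same libraries, lymphocytes were lower for 6 of 7 genes, a direction shared by 26.1% of the 13337 genes tested (5 libraries, median log2 difference of all genes -0.28). The difference was largest for H2-DM. It was -2.41 ± 0.35 for H2-DMb1 (edgeR, adjusted p = 4.04e-09), -1.71 ± 0.28 for H2-DMa (1.29e-07), -1.62 ± 0.23 for H2-Eb1 (1.12e-09), -1.13 ± 0.23 for H2-Aa (2.21e-05), -0.91 ± 0.22 for Cd74 (0.000246) and -0.71 ± 0.23 for H2-Ab1 (0.00909). Libraries disagreed for 5 of the 6: Cd74 and H2-Ab1 were higher in lymphocytes in 2 of 5 libraries, and H2-Aa, H2-DMa and H2-DMb1 in 1 of 5. Ciita differed by -1.23 ± 0.77 and did not pass (0.201). Of 10 further class II genes tested, H2-Oa, H2-Ob, Ctss, Ifi30 and Cd83 were higher in lymphocytes, by 3.18, 5.23, 2.31, 1.08 and 3.30 on the log2 scale, and H2-Eb2, Ctsl and Lgmn lower, by -3.28, -3.19 and -1.16. Of the 7 transcription factor genes only Creb1 was called, at 1.45 ± 0.31. The IFNγ axis split, Ifng, Ifngr1, Jak1, Jak2 and Socs1 being higher in lymphocytes (6.46 ± 0.38 for Ifng) and Irf1 lower (-0.93 ± 0.25). Cd4, the coreceptor that binds class II, was higher by 7.59 ± 0.41.

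In endothelial cells, oligodendrocytes and astrocytes, Cd74 was detected beside tumours and hardly in naïve brain. The 2000 barcodes per library below the 1000 deepest also held Cd74. It was there at 2061, 1938, 159, 2223, 80.3 and 1585 CPM in the 6 tumour-bearing libraries, in the order used above. In WT and KO naïve brain it was at 39.9 and 32.4 CPM. The part of RNA from tumour cells in the values of the non-tumour classes was not tested. Endothelial cells gave 13 Cd74 UMIs in WT early (60.9 CPM), 9 in KO early (171), 21 in KO intermediate (400.1) and 46 in KO late (1016), 37 of them in 1 cell, and 0 in WT intermediate (3 cells) and WT late (9 cells). In the 184 endothelial cells of naïve brain there were 0, which allows 4.72 CPM (3 UMIs), so the pooled 218 CPM was at least 46.2-fold higher. Without the 1 cell of KO late, a choice made after the values were seen, the pooled level was 131 CPM and that of KO late 251 CPM. The share of cells with a Cd74 UMI was 26 of 98 (26.5%, or 14.3% after thinning, median 2911.5 UMIs), against 0 of 184, which allows a share of up to 1.63%. Of the 2 genes that passed the filter both were called, Cd74 (edgeR, adjusted p = 0.00113) and H2-Ab1, by 5.43 ± 1.12 on the log2 scale (0.00819), against 4.75% of all 1347 genes tested. Both were higher in 4 of 5 libraries. Naïve endothelium held 0 Cd74 and 3 H2-Ab1 UMIs, so these 2 genes passed the filter through the tumour-bearing libraries, where they were high. Their calls therefore cannot be weighed against the share over all genes.

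The myeloid list was read beside them without Apoe, which astrocytes also make. Its 9 genes, all detected in the pooled UMIs of tumour-bearing and of naïve libraries, summed to 38.1 to 1325 CPM in endothelial cells of the 6 tumour-bearing libraries, highest in KO late, and to 70.8 and 296 CPM in WT and KO naïve brain. It gave 1.36 UMIs per Cd74 UMI, against 2.89 in macrophage-like cells, with 0.0952 in KO intermediate and 1.30 in KO late. The 1 cell of KO late with 37 Cd74 UMIs held 53 of the 60 UMIs of the list there, and without it the list was at 195 CPM in KO late. The part of myeloid RNA in the endothelial values was not tested. H2-DMa gave 14 UMIs and H2-DMb1 4 in tumour endothelium (0 of both in naïve), and Ciita 1. The endothelial calls were lost with Leiden classes, with predicted doublets removed and with a lower gene minimum per cell, each of which called 0 of the 7 genes, and without KO naïve (0 called). Without KO late, 3 genes were called.

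Oligodendrocytes, the myelinating glia, gave 55 Cd74 UMIs in WT early, 18 in KO early, 1 in WT intermediate, 9 in KO intermediate, 0 in WT late and 7 in KO late (190, 204, 11.0, 88.0, 0 and 95.1 CPM), against 0 in 144 cells of naïve brain, at least 19.5-fold higher when pooled (against 3 UMIs). The share was 40 of 223 cells (17.9%), but 6.28% after thinning. Of 4 genes tested 1 was higher, Cd74 (edgeR, adjusted p = 0.0456, 5 of 6 libraries), against 1.58% of 2664 genes. Cd74, H2-Aa and H2-Ab1 had 0 UMIs in naïve oligodendrocytes and so entered the fit through the tumour-bearing libraries. The number called therefore cannot be weighed against the share over all genes. H2-Aa and H2-Ab1 were absent from naïve oligodendrocytes and did not pass (0.0602 and 0.0591), nor did H2-Eb1 at 3.66 ± 1.44 (0.321). The myeloid list without Apoe, with all 9 genes detected in the pooled UMIs, was lower in oligodendrocytes of each tumour-bearing library (11.0 to 295 CPM) than in WT and KO naïve brain (852 and 683 CPM), and it gave 1.43 UMIs per Cd74 UMI. The Cd74 call was lost without WT early, KO early, KO late or either naïve library, and with WT intermediate and WT late left out together, a choice made after the values were seen, all 4 genes were called.

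Astrocytes gave 4, 7, 0, 9, 0 and 4 Cd74 UMIs in the 6 tumour-bearing libraries and 1 in 217 cells of naïve brain. None of the 7 genes passed the filter on low counts there, where 0.755% of 662 genes were called higher. Cd74 was in 17 of 74 cells (23.0%, or 10.8% after thinning, median 2279 UMIs), H2-Ab1 gave 24 UMIs and H2-Eb1 21, while H2-DMa gave 0, which allows up to 15.7 CPM. The myeloid list without Apoe was at 0 to 1421 CPM in astrocytes of tumour-bearing libraries, highest in KO intermediate, with 8 of 9 genes detected in all, and at 542 and 1239.7 CPM in WT and KO naïve brain, and it gave 2.13 UMIs per Cd74 UMI over the tumour-bearing libraries, against 2.89 in macrophage-like cells. OPCs, found only beside tumours, gave 17 Cd74 UMIs in 11 of 61 cells, 24 each of H2-Ab1 and H2-Eb1 and 9 of H2-DMa (47.7 CPM). Their H2-DMa level did not exceed the 60.3 CPM (8 UMIs) of neuron-like cells, so it could not be told from background. In mural or fibroblast-like cells Cd74 was not higher beside tumours, at 502 CPM against 663 CPM in naïve brain. In these cells, 80 of 120 Cd74 UMIs beside tumours and 31 of 38 in naïve brain came from 1 cell each.

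Between genotypes, no member was called in TAM I, TAM II or tumour cells. In tumour cells the KO over WT log2 fold change was 3.58 ± 1.06 for Cd74 (edgeR, adjusted p = 0.580), between 3.56 and 3.85 for the chains, 2.84 ± 0.85 for H2-DMa, 2.01 ± 0.53 for H2-DMb1 (0.518) and 2.07 ± 0.89 for Ciita (0.769), and 0% of all 14332 genes were called (933 at an unadjusted p under 0.05, 66 by DESeq2). Their median was 3.56, against 0.00 over all genes and -0.09 over the 7 transcription factor genes. In TAM I the median was 3.68 (Cd74 3.64 ± 1.13, adjusted p = 0.704) and 0% of 1917 genes were called (77 at an unadjusted p under 0.05, 1 by DESeq2). In TAM II the median was 1.59 (Cd74 1.65 ± 0.54, 0.643), 0.111% of 6323 genes were called, and H2-DMa came nearest at 1.29 ± 0.31 (0.192, higher in 3 of 3 stages).

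Single libraries were also set side by side at each stage, which allows no test of the genotype or the stage. In tumour cells, Cd74 in KO over WT was 0.10 (0.04 to 0.17) on the log2 scale at early stage, 4.86 (4.69 to 5.03) at intermediate and 4.88 (4.69 to 5.08) at late stage. In macrophage-like cells it was -0.14 (-0.19 to -0.08), 3.61 (3.33 to 3.90) and 1.51 (1.37 to 1.65). At early stage the genotypes were thus close, and the differences at the later stages were those of WT intermediate and WT late. These intervals cover counting error only and 1 mouse stands for each value.

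Between stages, no member was called either. Late over early, Cd74 changed by -4.71 ± 1.27 in TAM I (edgeR, adjusted p = 0.471), -1.24 ± 0.61 in TAM II (0.973) and -3.15 ± 1.21 in tumour cells (0.638), where 0.0522%, 0.0158% and 0% of all genes were called (in tumour cells 1060 at an unadjusted p under 0.05, and 20 by DESeq2). In single libraries, which allow no test, Cd74 late over early in tumour cells was -4.81 (-5.01 to -4.62) in WT and -0.04 (-0.10 to 0.02) in KO, and in macrophage-like cells -1.68 (-1.82 to -1.54) and -0.03 (-0.09 to 0.02). The genotype difference was not shown to differ between TAM II and TAM I, with an interaction of -1.60 ± 0.78 for Cd74 (adjusted p = 1, 0.026% of genes called, 0 members).

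Across the 74 sums of class and library, the genes whose level was most like that of Cd74 were its partners and a set of immune genes. The Pearson correlation of log2(CPM + 10) with Cd74, over 8593 genes, was 0.955 for H2-Ab1, 0.949 for H2-Eb1, 0.948 for H2-Aa, 0.833 for H2-DMb1 and 0.772 for H2-DMa. Outside the 7 genes, the highest were Ifi211 (0.817), Gbp8 (0.806), Casp1 (0.803), Nfkbie (0.798), Epsti1 (0.786), H2-Q7 (0.786), Samhd1 (0.776), H2-K1 (0.774), Clec7a (0.772) and Ifi204 (0.771). H2-K1 and H2-Q7 are class I genes, and 6 of the 10 stayed in the list with a pseudocount of 50. These sums share libraries and depth, and the values are descriptions.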

How the data were processed

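Single-cell suspensions of naïve brain and of macro-dissected GL261 tumours were profiled by Drop-seq, a droplet method that tags the 3′ end of each transcript with a cell barcode and a UMI. The authors demultiplexed with bcl2fastq 2.0 and aligned with STAR (version not given in the sources used here) to GRCm38 (mm10), per the submitters' processing notes, and deposited raw UMI counts per gene and barcode, 3000 barcodes per library, 2885345 to 9950713 UMIs. The labels and the study's methods differ on the implantation site and on the day at which imaging began.

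The 1000 deepest barcodes of each library were read. Genes in at least 30 cells and cells with at least 1000 genes were kept, giving 5698 cells. Cells were clustered without 24 class II genes (50 principal components, tSNE with perplexity 50 in Rtsne 0.17, HDBSCAN of at least 19 cells, scikit-learn 1.9.0), 70 unassigned cells took the class of their neighbours, and clusters were named from marker lists. The 7 members and all lists were chosen with earlier results of these data known. UMI counts were summed per class and library with at least 5 cells and tested with edgeR 4.0.16 (quasi-likelihood, TMM, adjusted p under 0.05) in R 4.3.3, with DESeq2 1.42.0 as an alternative. The study's Wilcoxon test over cells was not used, because each library is 1 mouse or pool. Nothing in the labels gives replicate libraries of a group, so groups of libraries mix genotype or stage.

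The genes named are the 7 members, the genes of 5 lists that passed the test, and the 10 most like Cd74. A few genes these rules would name are not reported here. Fits were tested on simulated data. Scrublet called 1 to 11 cells per library, too few to trust in 5 libraries, where the top 5% by score were removed in that alternative. Alternatives covered Leiden classes (leidenalg 0.10.2), another tSNE seed, clustering with all genes, a minimum of 500 genes, RLE size factors, no filter on low counts and leaving out each library. Shares were also computed after thinning cells to 1000 UMIs.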

Additional observations from a re-analysis of the deposited data

Results flagged for a closer look

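In groups of 5 libraries, 1 library stood apart from the rest by Dixon's criterion in 4 of 40 groups examined, where chance gives about 1 in 20. H2-DMb1 in lymphocytes of WT early was low, at 7.72 CPM (2 UMIs), against 37.1 to 48.4 CPM in the other 4. Endothelial cells of KO late (16 cells) were high, at 817 CPM for H2-Aa, 1126 CPM for H2-Ab1 and 773 CPM for H2-Eb1, but 1 cell held 34 of the 37 H2-Aa, 43 of the 51 H2-Ab1 and 32 of the 35 H2-Eb1 UMIs, together with 53 of the 60 UMIs of the myeloid list without Apoe.

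Tumour cells moved in opposite directions from early to late stage in the 2 genotypes, each by more than its counting error, the KO rise being small. The late over early log2 ratio was -5.75 in WT and 0.13 in KO for H2-Aa, -5.51 and 0.29 for H2-Ab1, -6.02 and 0.07 for H2-Eb1, and -4.84 and 0.78 for Ciita. In tumour cells without a myeloid UMI the KO chains did not rise, at 895 CPM early and 867 late for H2-Aa, 830 and 815 for H2-Ab1 and 1146 and 1036 for H2-Eb1, while Ciita went from 6.92 to 14.3 CPM, and KO late had the most myeloid list UMIs in tumour cells (1597 CPM). Each is 1 library over 1 library, and the difference between the genotypes was not tested.

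The 2000 barcodes per library below the 1000 deepest, which entered no comparison, also held class II UMIs. The 7 genes together were at 6187 CPM in WT early, 6602 in KO early, 663 in WT intermediate, 6259.7 in KO intermediate, 245 in WT late and 5766 in KO late, against 151 and 128 CPM in WT and KO naïve brain. WT intermediate and WT late were again the lowest of the tumour-bearing libraries, without use of any cell class. Myeloid transcripts in these barcodes were also lowest in those 2 libraries, at 2472 and 2601 CPM against 4918 to 10624 CPM in the other tumour-bearing ones. The part of the mix of cells in these levels was not tested.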

How the results depend on the processing

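Of 1102 refitted log2 fold changes of single members, 912 kept their direction and their side of the threshold, 110 passed and 59 ceased to pass, and 21 changed sign; 433 of 448 class levels moved by less than the spread between libraries. TAM II against TAM I called 5 members without any 1 library, lymphocytes against tumour cells 5 or 6, and thinning moved 78 of 175 shares of cells beyond their interval. The causes were not tested.

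Members called: DESeq2 called 2 of 5 for microglia against naïve, 1 of 2 for endothelial cells, 0 of 1 for oligodendrocytes, 2 of 5 for TAM II against TAM I and 2 where edgeR called 0 for KO against WT in TAM II. Robust dispersion estimates, added after seeing the data, called 0, 1, 0 and 1 in the first 4. Clustering with all genes called 2 for microglia and 1 for endothelial cells. With doublets removed, 3, 0 and 0 were called for microglia, endothelial cells and oligodendrocytes, with Leiden classes 0 for endothelial cells, and with a minimum of 500 genes 0 for endothelial cells, 3 for oligodendrocytes and 2 for astrocytes. Without the filter on low counts, 5, 4 and 4 were called for these 3 classes, 2, 6 and 7 for KO against WT in TAM I, TAM II and tumour cells, and 4 and 6 for late against early in TAM I and tumour cells. With WT intermediate and WT late left out together (added after seeing the data), 4, 4 and 1 were called for endothelial cells, oligodendrocytes and astrocytes.

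Genes called: endothelial cells, 72 as reported, gave 163 without the filter, 300 with Leiden classes, 197 at 500 genes and 130 without the 2 WT libraries. Oligodendrocytes gave 213 without the filter, 35 with robust estimates and 95 without the 2 WT libraries, and astrocytes 60, 30 at 500 genes and 21. KO against WT gave 1 (DESeq2) and 3 (no filter) in TAM I, 12 (DESeq2), 49 (no filter), 3 (robust) and 0 (all genes) in TAM II, and 66 (DESeq2), 461 (no filter) and 2 with RLE, robust estimates or 500 genes in tumour cells. Late against early gave 3 (DESeq2), 11 (no filter), 0 (500 genes) and 2 (robust, all genes, doublets removed) in TAM I, 26 (no filter) and 0 (robust, all genes, 500 genes, doublets removed) in TAM II, and 20 (DESeq2) and 362 (no filter) in tumour cells. The interaction gave 0 (DESeq2), 5 (no filter) and 19 without the 2 WT libraries, where its sign turned to 0.79 for Cd74, 1.14 for H2-Aa, 1.04 for H2-Ab1 and 0.85 for H2-Eb1. Ciita late against early in TAM II, -0.0038 as reported, was 0.00586 with RLE and 0.000268 at 500 genes.

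Leaving out each library in turn, 0 to 6 members and 21 to 644 genes were called for microglia, 0 to 4 and 27 to 130 for endothelial cells, 0 to 3 and 3 to 82 for oligodendrocytes and 0 to 1 and 7 to 24 for astrocytes. KO against WT gave 0 to 5 members and 2 to 35 genes in TAM I, 0 to 6 and 0 to 87 in TAM II, and 0 to 6 and 2 to 64 in tumour cells, where 4 to 6 were called without KO early or WT early and 0 otherwise. Late against early gave 0 to 6 and 3 to 35 in TAM I, 0 to 4 and 0 to 97 in TAM II and 0 to 3 and 0 to 52 in tumour cells. In TAM II it ranged from -2.29 to 0.51 for Cd74, -1.99 to 0.30 for H2-Aa, -2.18 to 0.31 for H2-Ab1, -2.13 to 0.47 for H2-Eb1 and -1.13 to 0.55 for Ciita, and in tumour cells from -4.19 to 0.38 for Ciita. The interaction gave 0 to 4 members and 0 to 11 genes, from -10.13 to 0.25 for H2-Aa, -5.56 to 0.066 for H2-Ab1, -10.18 to 0.028 for H2-Eb1, -0.81 to 0.61 for H2-DMa and -0.61 to 0.63 for H2-DMb1. KO against WT and late against early could not be fitted without both WT intermediate and WT late, which leaves no residual degrees of freedom.

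No paired analysis was possible by replicate number between genotypes, stages or naïve and tumour-bearing libraries because each group holds 1 library; classes of the same libraries were compared in pairs by library. Depth limits Ciita most, which passed the filter in TAM II, tumour cells and lymphocytes only.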

Other observations

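H2-Eb2, a further class II β chain gene, followed the members in tumour cells, at 45.8 CPM in WT early, 18.9 in KO early, 0.251 in WT intermediate, 19.2 in KO intermediate, 0 UMIs in WT late and 21.9 in KO late. Pooled over the tumour-bearing libraries it was higher in tumour cells (13.2 CPM, 11.9-14.6) than in macrophage-like (6.72 CPM) and microglia-like cells (7.34 CPM, 5 UMIs), the reverse of H2-Eb1, and sharing of reads between the 2 genes was not tested. Of the proteases that trim the invariant chain, Ctsl was at 263 to 388 CPM in tumour cells of all 6 libraries, with WT intermediate and WT late at 297 and 315 CPM, and so did not follow the class II genes. Ctss was at 45.8, 65.8, 8.65, 20.5, 67.5 and 344 CPM in tumour cells, in which KO late, the library with the most myeloid list UMIs in tumour cells (1597 CPM), stood highest.

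The checkpoint ligand Cd274 in tumour cells was at 39.7, 30.4, 9.65, 35.1, 4.93 and 29.7 CPM in WT early, KO early, WT intermediate, KO intermediate, WT late and KO late, the 2 libraries low in class II being lowest here as well.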
